A study of Mus musculus with 19 samples.

Results

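The livers of 3 male C57BL/6 mice with a transgene that encodes c-Jun and Fra-2, members of the AP-1 family, as a joined dimer were compared, gene by gene, with those of 6 control littermates. Doxycycline, which holds the transgene silent, had been removed from mutants and controls alike at weaning, 3 weeks of age, and the animals were killed 2 months later. These 9 libraries, chosen by genotype and time alone, are part of a series of 19. Of the other 10, from animals killed 9 months after the removal, 3 samples of tumour-free mutant liver and 3 controls enter the last comparison. The labels call the genotypes mutant and control, describe the tissue as mostly hepatocyte, and name neither the promoter nor the cell type that drives the transgene. Littermates are separate animals, so the spread between libraries is a spread between mice.

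AP-1 transcription factors work as pairs, joining a member of the Jun group to one of the Fos group, which includes Fra-2, or of the ATF group. The pairs bind a short palindromic DNA motif in promoters and enhancers. In liver, c-Jun is known for its part in regeneration and in chemically induced cancer, and AP-1 pairs with different partners have been tied to steatosis, fibrosis and the control of lipid metabolism. Hepatocytes, in turn, are defined by plasma proteins, bile acids, urea and ketone bodies, and by the enzymes that oxidise fatty acids, drugs and steroids.

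The 2 genes joined in the transgene were read first. Fosl2, the gene of Fra-2, had 836, 763 and 600.3 CPM in mutants 1 to 3, against 7.87 to 17.9 CPM in controls (median 10.7 CPM). CPM are counts brought to a common library size, with totals scaled by edgeR's TMM method. Jun, the gene of c-Jun, had 605, 639.6 and 500.1 CPM in mutants, against 9.86 to 24.4 CPM in controls (median 15.9 CPM). Every mutant lay above every control for both genes, and edgeR's quasi-likelihood test with Benjamini-Hochberg adjustment gave log2 change 5.98 ± 0.23, adjusted p = 1.43e-08 for Fosl2 and log2 change 5.18 ± 0.26, adjusted p = 1.14e-07 for Jun. The value after ± beside a log2 change is its standard error. Reads of the transgene and of the animal's own genes fall into the same 2 rows of the table and cannot be told apart. In build GRCm38, Fosl2 lies on chromosome 5 at 32135801 to 32157842 (ENSMUSG00000029135.10) and Jun on chromosome 4 at 95049034 to 95052222 (ENSMUSG00000052684.4).

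Of the 13773 genes tested, 42.7% changed at an adjusted p under 0.05, 22.3% upwards and 20.4% downwards, and each count of members below has to be read against these shares. In 38.5% the mutants and the controls did not overlap. The filter on low counts also kept genes seen in only 1 group. Some list members, such as Add2, were thus tested only through the group where they were high, and counts of lists that hold them are a description. The total count per library was 15.68 to 18.83 M in mutants and 14.29 to 17.45 M in controls. The median log2 change of all genes was 0.01 with TMM scaling. Scaled by library size alone it was 0.29, and albumin and other abundant transcripts took a smaller share of the mutant libraries. The 10 most abundant genes held 15.4 to 18% of the counts in mutants, against 18.5 to 20.7% in controls, and 12480 to 12975 genes reached 1 CPM in mutants, against 11950 to 12272 in controls. Both differences had p = 0.0119 in an exact two-sided permutation test over 84 splits, the smallest it can give, and 0.0149 after Benjamini-Hochberg adjustment over the 5 values tested. The share of counts from the mitochondrial genome was 4.29 to 5.37% in mutants and 4.77 to 6.31% in controls (p = 0.476 in the same exact permutation test). A pair of libraries of 1 group lay at a root mean square log2 distance of 0.409 to 0.524 among mutants and 0.274 to 0.490 among controls, and a mutant and a control at 0.917 to 1.15.

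**Figure D1:**
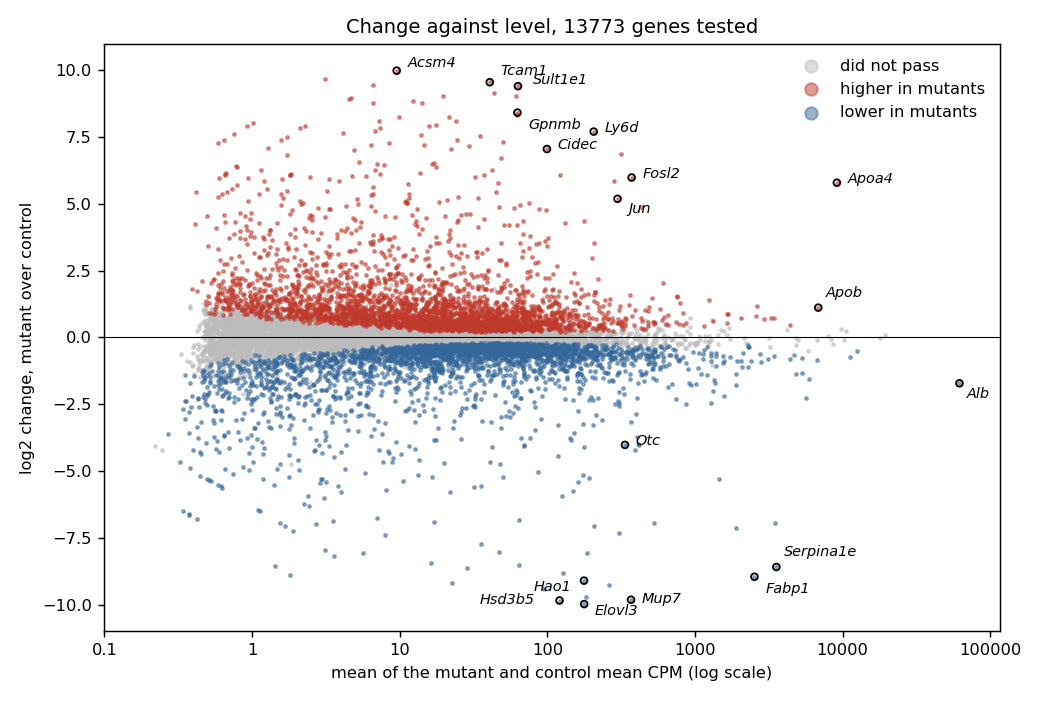
Log2 change of each tested gene in mutants over controls against its level, the mean of the mutant mean and the control mean in CPM on a log scale. Red points were higher in mutants, blue points lower, grey points did not pass, and circled genes are named in the text. Changes in both directions are seen at low and at high levels.

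The 6 control livers were not alike, and this bears on several results. In 58 genes, picked after their values were seen, controls 1 to 3 and controls 4 to 6 did not overlap and their mean log2 levels lay more than 1.5 apart. Of these, 40 were higher in controls 4 to 6 and 18 in controls 1 to 3. The split was widest in the genes of the major urinary proteins, pheromone carriers that male liver secretes under growth hormone, of which 19 were among the 58. They lie between positions 59964294 and 62012412 of chromosome 4. Mup7 had 1.29, 7.30 and 3.47 CPM in controls 1 to 3 and 1276, 1696 and 1437 CPM in controls 4 to 6, with 1.22, 0.531 and 0.695 CPM in the mutants. The mutants were thus close to controls 1 to 3 on this gene and far from controls 4 to 6. Onecut1, a hepatocyte transcription factor, had 1.61, 1.18 and 2.34 CPM in mutants, 1.97, 2.76 and 2.38 CPM in controls 1 to 3 and 14.8, 20.6 and 18 CPM in controls 4 to 6. Cyp2b10, a drug-metabolising P450, had 85.2, 60.9 and 43.2 CPM in mutants, 22.5, 26.9 and 15.9 CPM in controls 1 to 3 and 3.58, 3.92 and 2.34 CPM in controls 4 to 6. A second split cut across the first. Dbp, an output gene of the circadian clock, was at 17.1 and 7.99 CPM in controls 3 and 5 and at 82.6 to 209 CPM in the other 4, while Arntl, the clock gene of opposite phase, was at 41.3 and 22.9 CPM in controls 3 and 5 and at 4.19 to 8.61 CPM in the other 4. The mutants had 102, 116 and 67.2 CPM of Dbp and 11.4, 3.66 and 5.69 CPM of Arntl. The labels give no litter, cage, feeding state or hour of death, so what separates the controls was not tested. Without controls 1 to 3, 5142 genes passed, without controls 4 to 6 4230, and without controls 3 and 5 5091. Of the 5883 genes called with all 9 libraries, 4668, 4032 and 4875 were called again in these 3 fits.

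**Figure D2:**
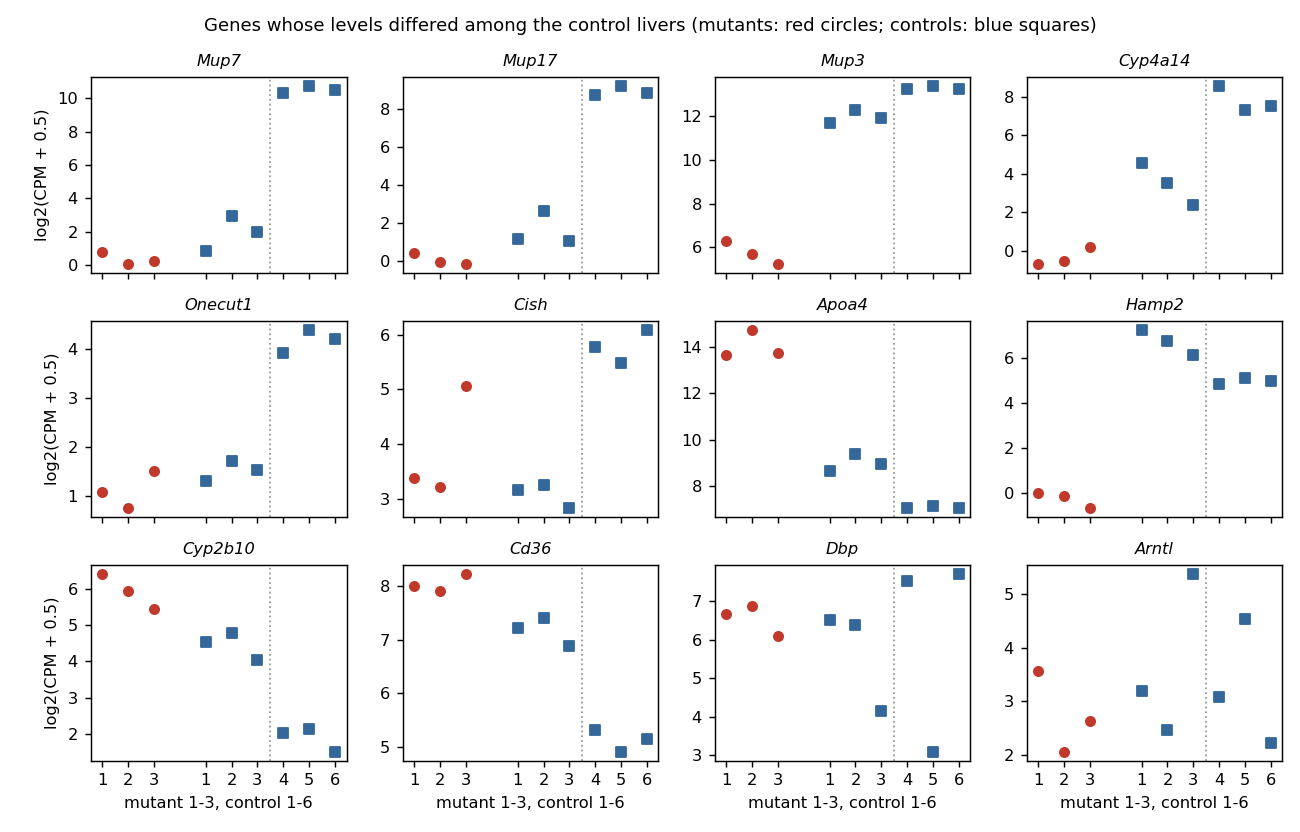
Levels of 12 genes as log2(CPM + 0.5) in the 3 mutant livers (red circles, left) and the 6 control livers (blue squares, right), by animal number, with a dotted line between controls 3 and 4. Dbp and Arntl set controls 3 and 5 apart, and the other 10 genes separate controls 1 to 3 from controls 4 to 6.

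Among the genes with the largest rises, control liver had next to no transcript. Acsm4, a medium-chain acyl-CoA synthetase, had 18.2, 23.7 and 15.3 CPM in mutants, and 1 count in all 6 controls together (a ratio of 1649 with an exact 95% counting interval of 295 to 65210.5 after scaling). Add2, a subunit of the membrane skeleton protein adducin known from red cells and brain, had 6.18, 6.02 and 6.64 CPM in mutants and no count in controls, at least 186-fold higher by a floor of 3 counts over the group. Tcam1, a cell adhesion gene described in testis, had 98.4, 77.2 and 68.6 CPM in mutants, against 0 to 0.263 CPM in controls (median 0.0735 CPM, log2 change 9.54 ± 0.26, adjusted p = 1.96e-09). All 3 mutants expressed these genes, at levels close to each other. Sult1e1, the sulfotransferase that inactivates estrogens, had 148, 95.1 and 136 CPM in mutants, against 0.0642 to 0.492 CPM in controls (median 0.110 CPM, log2 change 9.39 ± 0.29, adjusted p = 3.8e-09). Lrtm2, a leucine-rich membrane protein of neurons, had 165, 107 and 96.5 CPM in mutants, against 0.0730 to 0.394 CPM in controls (median 0.221 CPM, log2 change 9.04 ± 0.26, adjusted p = 2.82e-09). Other rises were uneven among the mutants. Muc13, a membrane mucin of gut epithelium, had 20.6, 32.5 and 64.7 CPM in mutants, against 0 to 0.142 CPM in controls. Meltf, a membrane protein related to transferrin, had 54.2, 64.3 and 143 CPM in mutants, against 0 to 0.369 CPM in controls. In both, mutant 3 was the highest and every control was under 0.4 CPM. Opalin, a myelin protein, was the reverse, with 15.9, 18.3 and 5.04 CPM in mutants and 1 count over all controls (a ratio of 1085 with an exact 95% counting interval of 194 to 42932).

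**Figure D3:**
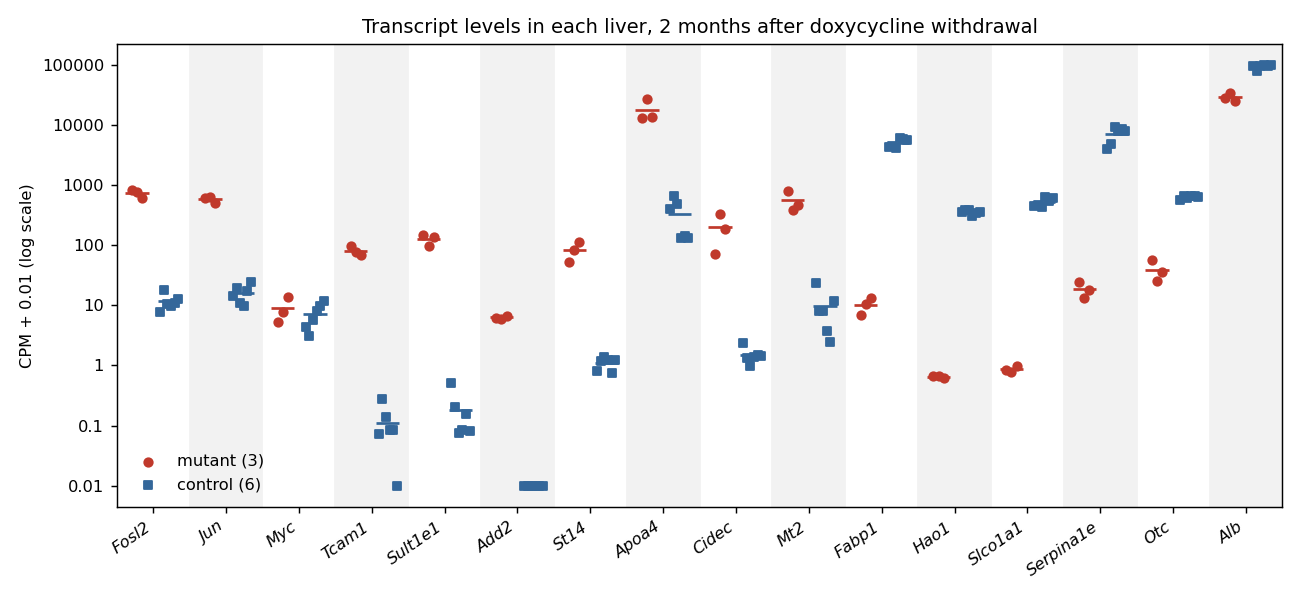
Level of 16 genes in each of the 3 mutant livers (red circles, left of each pair) and the 6 control livers (blue squares, right), as CPM + 0.01 on a log axis, with lines at the group means. In 15 genes no mutant overlaps a control; in Myc, 2 of the 3 mutants lie within the range of the controls.

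The promoters of these genes were read for the AP-1 motif, TGANTCA, on both strands, in RefSeq windows of 300 bases that run from 250 bases before to 50 bases after a gene's start (build GRCm38.p6). Of the 8 protein coding genes named for the largest rises, Acsm4 and Muc13 held a match. Of the 7 named for the largest falls that had a window none did. The windows of Acsm4 (chr7:119689776-119690075, plus strand), of Muc13 (chr16:33793787-33794086, plus strand, the first of its 2 windows, both of which match) and, as a gene that fell without a match, of Hao1 (chr2:134554303-134554602, minus strand) are given 5′ to 3′ with the motif in capitals. The match begins 125 bases before the start of Acsm4 and 61 bases before that of Muc13.
Acsm4: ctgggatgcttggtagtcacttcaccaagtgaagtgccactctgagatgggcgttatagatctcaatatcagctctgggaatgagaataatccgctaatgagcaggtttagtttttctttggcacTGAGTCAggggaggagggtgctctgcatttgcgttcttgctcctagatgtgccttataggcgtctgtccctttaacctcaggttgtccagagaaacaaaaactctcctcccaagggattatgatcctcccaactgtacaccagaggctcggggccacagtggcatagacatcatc
Muc13: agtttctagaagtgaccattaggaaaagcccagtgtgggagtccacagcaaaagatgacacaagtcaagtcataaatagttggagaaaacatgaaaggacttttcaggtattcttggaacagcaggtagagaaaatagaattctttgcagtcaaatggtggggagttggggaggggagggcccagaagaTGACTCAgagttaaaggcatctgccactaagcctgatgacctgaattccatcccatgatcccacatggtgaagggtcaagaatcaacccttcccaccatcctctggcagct
Hao1: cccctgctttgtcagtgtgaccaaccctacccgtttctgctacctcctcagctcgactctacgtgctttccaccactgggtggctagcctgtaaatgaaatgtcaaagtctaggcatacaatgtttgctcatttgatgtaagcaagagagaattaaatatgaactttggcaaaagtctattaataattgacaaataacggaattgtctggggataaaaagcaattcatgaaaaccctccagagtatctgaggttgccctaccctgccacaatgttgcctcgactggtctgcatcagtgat

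Among the 10505 tested genes with a window, the motif occurred in 6.65%, and in 7.81% of all 32851 windows in the table. Its share grew with the size of the rise. It was 20.1% of the 214 genes that rose at least 8-fold (43 genes), 11.3% of the 168 that rose 4- to 8-fold, 8.59% of the 629 that rose 2- to 4-fold and 7.08% of the 1342 that rose less. Genes that did not pass held it in 5.64% of 5996 cases. Among falls the share was 6.42% of the 1448 genes that fell less than 2-fold and 8.01% of the 437 that fell 2- to 4-fold. It was 10.2% of the 137 genes that fell 4- to 8-fold and 5.97% of the 134 that fell further. Restricted to genes with a single window, it was 17.6% of the 170 that rose at least 8-fold and 5.05% of all 8343. The same letters read backwards, ACTNAGT, served as a check on base composition. They were present in 11.2% of the genes that rose at least 8-fold, against 5.54% of all tested genes, which is also an excess. Their share was 8.93% for rises of 4- to 8-fold, 5.56% for 2- to 4-fold and 5.44% for smaller ones, so it grew with the rise too. The E-box CACGTG, bound by MYC and related factors, was in 8.41% of the genes that rose at least 8-fold and in 11.6% of all tested genes. The cyclic AMP response element TGACGTCA was in 1.87% of those genes and in 3.38% of all. Median GC content was 57.2% in the windows of genes that rose at least 8-fold, 49.7% in those of genes that fell at least 8-fold and 60.3% in all. A match is a string of letters and was not tested as a binding site.

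**Figure D4:**
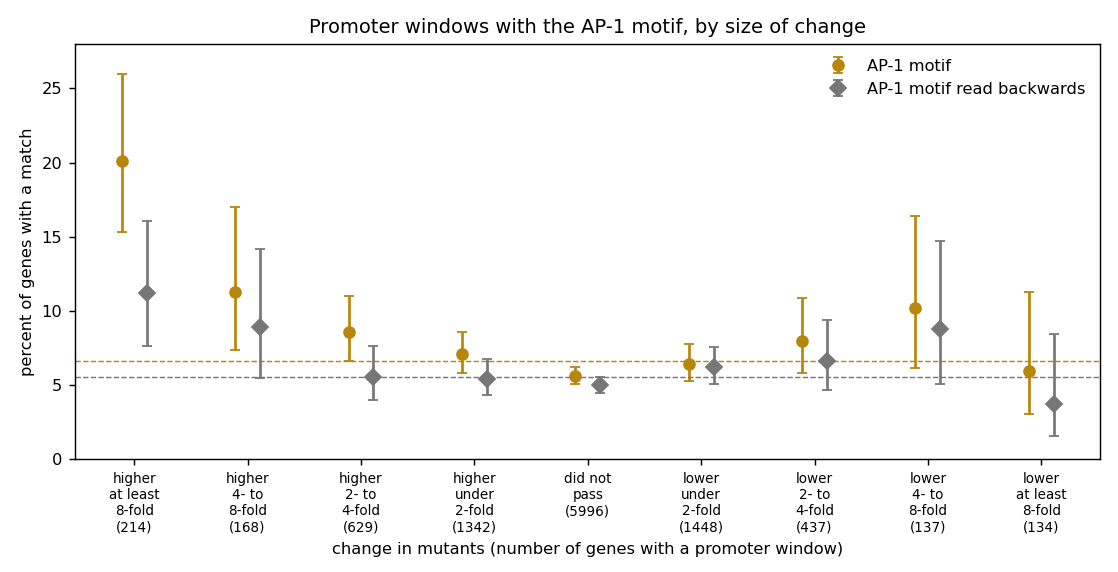
Percent of genes whose promoter window holds the AP-1 motif (gold circles) or the same letters read backwards (grey diamonds), by size and direction of the change in mutants, with 95% Wilson intervals that cover counting error only and dashed lines at the share among all tested genes. The AP-1 motif reaches 20.1% among genes that rose at least 8-fold, against 11.2% for the letters read backwards.

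In the AP-1 family 4 of 9 genes tested rose, Fosl2 and Jun of the transgene among them, and none fell. Of the other 7 members 2 rose, a share near the 22.3% of all genes. These were Atf3, a stress-induced partner of Jun (8.72 ± 9.37 CPM in mutants and 1.35 ± 0.788 CPM in controls, log2 change 2.68 ± 0.65, adjusted p = 0.00758), and Jdp2, a repressor of the family (4.08 ± 2.21 CPM in mutants and 1.45 ± 0.882 CPM in controls, log2 change 1.49 ± 0.50, adjusted p = 0.0349). Without mutant 3, or without controls 4 to 6, only Fosl2 and Jun still passed. The other Jun and Fos members gave log2 changes of 1.11 ± 0.46 for Fos, 0.16 ± 0.33 for Junb and -0.19 ± 0.18 for Jund, none of which passed. Batf2 (0.42 ± 0.25) did not pass either. Myc, the oncogene named in the study's title, had 5.34, 7.84 and 13.5 CPM in mutants, against 3.09 to 11.6 CPM in controls (median 6.98 CPM), and the groups overlapped (log2 change 0.34 ± 0.40, adjusted p = 0.533). Its log2 change was -0.11 without mutant 3 (adjusted p = 0.884), -0.13 without controls 1 to 3 (adjusted p = 0.784) and 1.00 without controls 4 to 6 (adjusted p = 0.0925). It lies at positions 61985391 to 61990374 of chromosome 15. Its relatives Mycl and Mycn fell: Mycl had 0.334, 0.767 and 0.955 CPM in mutants, against 2.46 to 8.74 CPM in controls (median 6.70 CPM, log2 change -3.16 ± 0.44, adjusted p = 0.000199), and Mycn was near the floor of detection, at 0.221 ± 0.184 CPM in mutants and 1.16 ± 0.439 CPM in controls (log2 change -2.27 ± 0.50, adjusted p = 0.00374). Among the partners and antagonists of MYC, Mlx (0.60 ± 0.09) and Mxd1 (0.55 ± 0.19) rose and Mxi1 (-0.37 ± 0.13) fell, while Max (0.36 ± 0.19) did not pass. Of 24 genes of ribosome biogenesis, a process that MYC drives, none rose and 6 fell, with a median of -0.14. These were small steps, as in Pa2g4 (-0.53 ± 0.08) and the ribosome assembly factors Nop16 (-0.58 ± 0.12) and Wdr12 (-0.60 ± 0.16). The direction rests on the scaling, since 5 of them rose and 1 fell when libraries were scaled by size alone. Without controls 4 to 6, 3 fell.

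Fatty acid oxidation fell in every tested step of the mitochondrial pathway. All 18 members passed and all fell, by -1.90 to -0.39 on the log2 scale, with a median of -0.72. Scaled by library size alone, 13 fell and none rose. Eci1, an isomerase needed for unsaturated fatty acids, had 42.7, 35.6 and 30.4 CPM in mutants, against 125 to 145 CPM in controls (median 136 CPM, log2 change -1.90 ± 0.12, adjusted p = 3.41e-07). The long-chain dehydrogenase Acadl averaged 82.2 ± 18.6 CPM in mutants and 252 ± 12.7 CPM in controls, and Slc25a20, which carries acylcarnitines into mitochondria, 48.9 ± 6.03 CPM in mutants and 116 ± 9.38 CPM in controls. Ketogenesis, which turns the product into fuel for other organs, fell in 4 of 5 genes. Among them were the thiolase Acat1 (89.8 ± 35.6 CPM in mutants and 525 ± 45.8 CPM in controls, -2.55 ± 0.23) and Bdh1, which reduces acetoacetate (-0.98 ± 0.15). Of the 7 protein coding genes of the mitochondrial genome that were tested, mt-Cytb (-0.74 ± 0.16), mt-Co1 (-0.51 ± 0.15) and mt-Nd6 (-1.40 ± 0.13) fell and the others did not pass.

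In peroxisomes 1 oxidase ran against the rest. Of 17 genes of peroxisomal oxidation, 12 fell and 1 rose. The one that rose was Acox3, an acyl-CoA oxidase known for branched-chain substrates, with 334, 379 and 347 CPM in mutants, against 35.7 to 52.6 CPM in controls (median 46.8 CPM, log2 change 2.97 ± 0.12, adjusted p = 1.37e-08). No mutant was within a factor of 5 of any control. The thiolase Acaa1b fell to 51.2, 66.4 and 54.9 CPM in mutants, against 589.9 to 919 CPM in controls (median 759 CPM, log2 change -3.71 ± 0.18, adjusted p = 7.93e-08). Abcd2, a transporter that brings very long chain fatty acids into the organelle, was nearly lost, at 0.835, 0.708 and 1.04 CPM in mutants, against 20.3 to 48.7 CPM in controls (median 28.5 CPM, log2 change -5.21 ± 0.43, adjusted p = 5.46e-06). Ehhadh, the bifunctional enzyme, changed by -1.32 ± 0.11. Of 16 genes that build the organelle, 8 fell, led by Pex11a, which divides peroxisomes and answers to PPAR-alpha (22.6 ± 5.96 CPM in mutants and 93.5 ± 19.4 CPM in controls, -2.05 ± 0.22), and 1 rose, the import receptor Pex5 (0.47 ± 0.10). By library size alone 3 genes of peroxisomal oxidation rose, and 4 of those that build the organelle fell. A list of nuclear receptors and coactivators had no member that rose and 11 of 21 that fell, with a median of -0.50. The number that fell was 6 without mutant 3, and by library size alone 4 fell and 2 rose. Nr1i3, the receptor CAR that senses drugs, averaged 50.2 ± 35.4 CPM in mutants and 374 ± 114 CPM in controls (log2 change -2.90 ± 0.46, adjusted p = 0.000615). Pparg, a receptor of fat storage, changed by -1.76 ± 0.28, Nr1h3, the oxysterol receptor LXR-alpha, by -0.66 ± 0.10, and Rxrb, a shared partner of such receptors, by -0.39 ± 0.08.

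**Figure D5:**
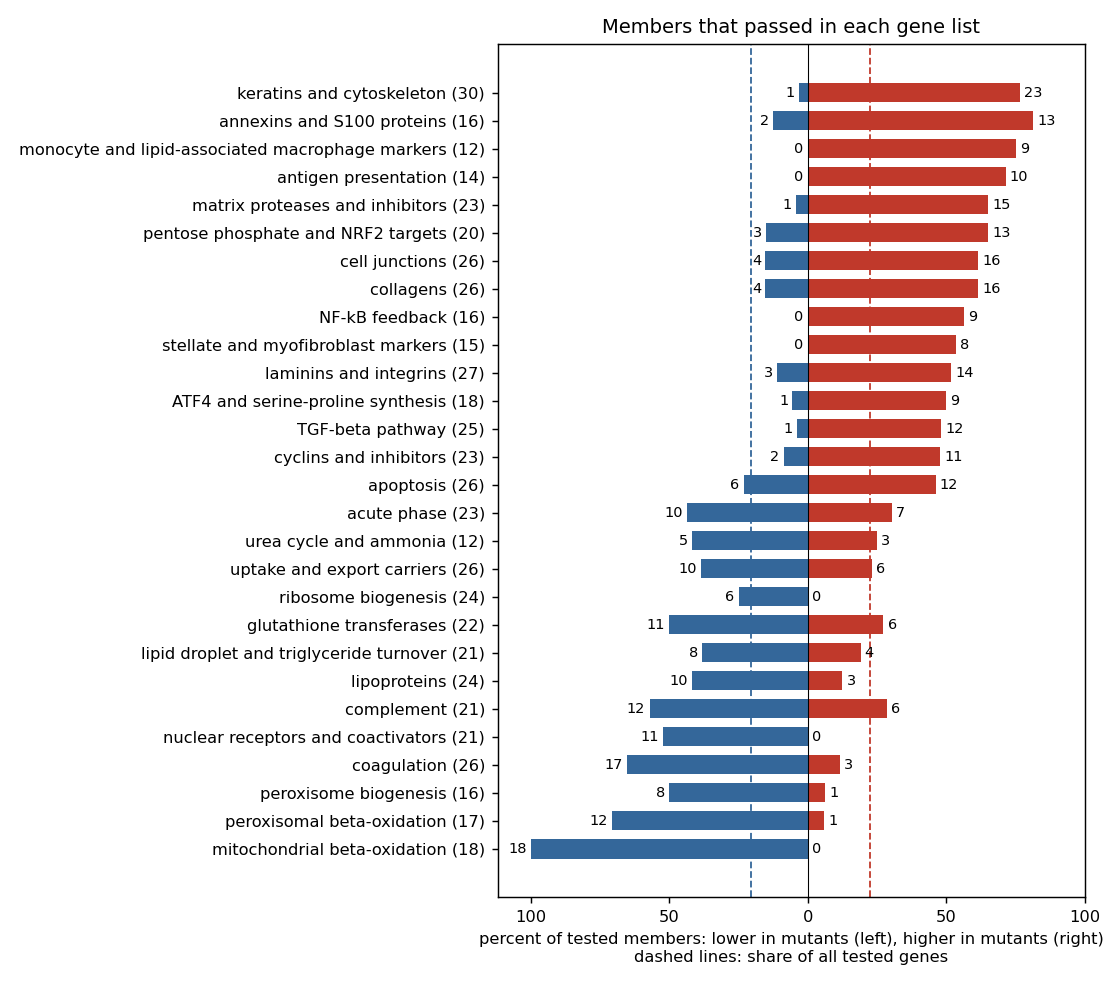
Percent of the tested members of 28 gene lists that were lower in mutants (blue, to the left) or higher in mutants (red, to the right) at an adjusted p under 0.05, with the number of members beside each bar, the number tested in parentheses and dashed lines at the shares among all tested genes. Lists of matrix, cytoskeleton and macrophage genes stand at the top, and fatty acid oxidation, where 18 of 18 fell, at the bottom.

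Lipid storage genes split. Of 21 genes of lipid droplets and triglyceride turnover, 4 rose and 8 fell, and 6 rose and 6 fell by library size alone. Cidec, which fuses small droplets into large ones, had 72.7, 333 and 186 CPM in mutants, against 0.963 to 2.34 CPM in controls (median 1.40 CPM, log2 change 7.04 ± 0.44, adjusted p = 1.53e-06). The mutants spread widely and lay far above every control. Plin3, a coat protein of nascent droplets, had 165 ± 5.92 CPM in mutants and 57.9 ± 8.95 CPM in controls (log2 change 1.51 ± 0.12, adjusted p = 2.91e-06). In the other direction, Fitm1, which helps droplets to bud (-2.89 ± 0.23), and G0s2, an inhibitor of triglyceride lipase (-2.32 ± 0.29), fell, while Abhd5, the activator of the same lipase (0.62 ± 0.13), and Gpam, the first enzyme of glycerolipid synthesis (0.53 ± 0.15), rose. Among 18 genes of fatty acid synthesis, Scd2, a desaturase of brain and of young liver, was the only one that rose, with 102, 156 and 135 CPM in mutants, against 5.70 to 7.71 CPM in controls (median 6.44 CPM, log2 change 4.34 ± 0.14, adjusted p = 3.21e-09). Of the 4 that fell, Me1, the malic enzyme that supplies NADPH, had 23.2 ± 8.03 CPM in mutants and 142 ± 21.8 CPM in controls (-2.61 ± 0.23). The number that fell was 2 without any 1 of mutants 1 and 3 and controls 1, 2 and 3, without controls 1 to 3, 4 to 6, or 3 and 5, in 1 fit over all 5 groups and with no filter on low counts, and it was 7 without mutant 2. By library size alone 7 rose and 2 fell, and without controls 1 to 3 3 rose. In cholesterol synthesis and uptake 7 of 24 rose and 4 fell. Fdps, which makes farnesyl diphosphate, averaged 78.4 ± 8.42 CPM in mutants and 28.1 ± 9.22 CPM in controls (1.48 ± 0.23) and rose, and the enzymes Dhcr7 (-0.93 ± 0.27), Cyp51 (-0.68 ± 0.17) and Tm7sf2 (-0.60 ± 0.14) and the carrier Stard4 (-1.04 ± 0.18) fell. Without controls 4 to 6 the number that rose was 3, and without controls 3 and 5 it was 11. In 1 fit over all 5 groups 2 fell.

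Lipoprotein genes went both ways. Apoa4, an apolipoprotein of gut and of fatty liver, had the largest gain in CPM of the genes tested, with 12861, 27308 and 13674 CPM in mutants, against 131 to 664 CPM in controls (median 270.4 CPM, log2 change 5.78 ± 0.61, adjusted p = 4.82e-05). The control range holds the split described above, with 401, 664 and 488 CPM in controls 1 to 3 and 131, 139.9 and 133 CPM in controls 4 to 6, and the log2 change was 7.06 without controls 1 to 3 and 5.10 without controls 4 to 6. Apob, the structural protein of very low and low density lipoprotein, had 8758, 10501 and 8777 CPM in mutants, against 3618 to 4588 CPM in controls (median 4470.3 CPM, log2 change 1.11 ± 0.11, adjusted p = 1.55e-05). Apoa1, the core protein of high density lipoprotein, had 2193, 1711 and 1947 CPM in mutants, against 6869 to 11319.5 CPM in controls (median 9838 CPM, log2 change -2.25 ± 0.18, adjusted p = 2.9e-06), and every mutant lay below every control. Of 24 genes 3 rose and 10 fell. The third that rose was the cholesterol exporter Abcg1 (0.95 ± 0.18). Among those that fell were the hepatic lipase Lipc (-1.89 ± 0.13) and the HDL protein Apom (-1.20 ± 0.12). Scaled by library size alone, the list had 7 that rose.

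Of 12 genes of the urea cycle and ammonia 5 fell and 3 rose, and of 8 genes of glyoxylate metabolism 5 fell and 2 rose. Otc, the second enzyme of the urea cycle, had 55.8, 25.3 and 35.8 CPM in mutants, against 571 to 670.0 CPM in controls (median 644 CPM, log2 change -4.02 ± 0.24, adjusted p = 3.37e-07). Arg1, the last enzyme, averaged 431 ± 201 CPM in mutants and 1404 ± 146 CPM in controls (-1.71 ± 0.24). The steps between and before them gave 0.29 ± 0.13 for Cps1, 0.04 ± 0.21 for Ass1, -0.08 ± 0.15 for Asl and -0.25 ± 0.11 for Nags, and none passed. Slc25a15, the carrier that moves ornithine into mitochondria, rose (641 ± 76.7 CPM in mutants and 324 ± 10.7 CPM in controls, 0.98 ± 0.09), as did the ammonia channel Rhbg (1.97 ± 0.28) and Glud1 (0.42 ± 0.09), while glutamine synthetase Glul (-0.98 ± 0.12), the glutaminase Gls2 (-0.53 ± 0.20) and the carrier Slc25a13 (-0.65 ± 0.12) fell. Hao1, the peroxisomal glycolate oxidase, had 0.668, 0.649 and 0.608 CPM in mutants, against 309 to 384 CPM in controls (median 354 CPM), the smallest adjusted p of the genes named here (log2 change -9.09 ± 0.16, adjusted p = 6.25e-11). In the same pathway Prodh2 (10.5 ± 6.83 CPM in mutants and 227 ± 21 CPM in controls, -4.44 ± 0.42) and Grhpr (-2.33 ± 0.18), which act upstream and downstream of glyoxylate, fell, as did the transaminases Agxt (-0.79 ± 0.20) and Agxt2 (-1.44 ± 0.20), and Hoga1 (0.48 ± 0.10) and Ldhd (0.44 ± 0.14) rose. Of 15 genes of tryptophan and tyrosine breakdown 9 fell, among them Kmo (-1.12 ± 0.14) and Tdo2 (-0.87 ± 0.17), the entry enzyme. A single gene rose, Acmsd (0.97 ± 0.20), which steers the pathway away from NAD. Scaled by library size alone, the list had 4 that rose.

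Plasma proteins fell unevenly. Alb, the gene of albumin, had 27698, 33770.4 and 25056 CPM in mutants, against 80395 to 99254 CPM in controls (median 97056 CPM, log2 change -1.72 ± 0.14, adjusted p = 3.11e-06), and its share of all counts was 3.04 to 3.65% in mutants and 7.58 to 9.43% in controls. Serpina1e, an alpha-1-antitrypsin gene of mouse, was at 24.2, 13.3 and 17.8 CPM in mutants, against 4015 to 9253 CPM in controls (median 7962 CPM, log2 change -8.59 ± 0.44, adjusted p = 1.38e-07). Its close copies Serpina1a (-1.20 ± 0.14) and Serpina1c (-0.87 ± 0.19) fell less, and the values of these near-identical genes depend on how their reads were divided. Ttr, the thyroid hormone carrier, averaged 2992 ± 1008 CPM in mutants and 7593 ± 721 CPM in controls (-1.34 ± 0.19). In the terminal complement complex, the transcripts of 2 of the 3 chains of C8 fell steeply: C8g had 10.5, 13.7 and 5.12 CPM in mutants, against 325 to 422 CPM in controls (median 381 CPM, log2 change -5.27 ± 0.30, adjusted p = 3.2e-07), and C8a averaged 49.3 ± 29.9 CPM in mutants and 778 ± 256 CPM in controls (-3.98 ± 0.47). The third chain, C8b, rose (569.6 ± 51.3 CPM in mutants and 385 ± 30.5 CPM in controls, 0.57 ± 0.10). Of 21 complement genes 12 fell and 6 rose, with C9 (-1.25 ± 0.15) and C2 (-1.39 ± 0.14) lower and C4b (0.61 ± 0.10), C6 (0.62 ± 0.14), Mbl2 (0.56 ± 0.10), C1s1 (0.47 ± 0.10) and Masp1 (0.29 ± 0.10) higher. In 1 fit over all 5 groups 2 of the complement genes rose. Clotting factors and their inhibitors fell in 17 of 26 genes, including the factors F10 (-0.95 ± 0.09) and F7 (-0.76 ± 0.08), the inhibitor Serpind1 (-1.29 ± 0.13) and vitronectin, Vtn (-1.37 ± 0.14). The 3 that rose were Hrg (0.88 ± 0.12), Kng1 (0.67 ± 0.09) and F5 (0.51 ± 0.11). The number that rose was 6 by library size alone, and in DESeq2 or without mutant 1 5.

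The acute phase genes went both ways. Of 23 tested, 7 rose and 10 fell. The metallothioneins, which bind zinc and copper, rose: Mt2 had 807, 392.1 and 464 CPM in mutants, against 2.44 to 23.5 CPM in controls (median 8.15 CPM, log2 change 5.84 ± 0.59, adjusted p = 3.54e-05), and Mt1 averaged 838 ± 298 CPM in mutants and 28.5 ± 15.6 CPM in controls (4.88 ± 0.45). Of the orosomucoids Orm3 averaged 91.1 ± 17.3 CPM in mutants and 1.62 ± 1.16 CPM in controls (5.78 ± 0.40) and Orm2 189 ± 146 CPM in mutants and 6.87 ± 2.84 CPM in controls (4.78 ± 0.46), while Orm1, the most abundant in controls, changed by 0.91 ± 0.19. Lcn2, an iron-chelate binder (3.44 ± 0.54), and the endotoxin receptor Cd14 (2.88 ± 0.30) rose as well. Classical members fell, among them Itih4 (397 ± 66.0 CPM in mutants and 2187 ± 426 CPM in controls, -2.46 ± 0.20), Serpina3n (-2.35 ± 0.19) and Lbp (-2.05 ± 0.16), the protein that hands endotoxin to Cd14. In iron and haem metabolism 11 of 23 fell and 4 rose. Alad (-1.01 ± 0.13) and Fech (-0.91 ± 0.12), enzymes of haem synthesis, and the iron sensor Tfr2 (-1.03 ± 0.14) fell, and ferritin heavy chain Fth1 (0.55 ± 0.10), Hfe (0.70 ± 0.14) and the importer Slc11a2 (0.32 ± 0.10) rose with Meltf. In 1 fit over all 5 groups 2 rose. Among 20 hormones that liver releases, Inhbc, an activin chain (4.62 ± 0.791 CPM in mutants and 79.2 ± 13.3 CPM in controls, -4.10 ± 0.19), and Fgl1 (19.6 ± 6.22 CPM in mutants and 264 ± 32.7 CPM in controls, -3.75 ± 0.21) fell with the smallest p. Tsku (1.81 ± 0.65), Fgf21 (1.74 ± 0.39) and Adm (1.05 ± 0.38) rose, and none of the 3 passed without controls 4 to 6. Only 1 rose without any 1 of mutants 2 and 3 and controls 1 and 4, without controls 3 and 5 or in voom.

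The growth hormone axis and the genes it drives in males changed with the split of the controls in view. Of 23 genes of the axis 6 fell and 3 rose. Igfbp2, an IGF binding protein of fasting and youth, had 9.02, 13.6 and 6.29 CPM in mutants, against 185 to 512 CPM in controls (median 344 CPM, log2 change -5.13 ± 0.44, adjusted p = 8.75e-06). Igfals, which stabilises IGF1 in blood (-2.00 ± 0.19), and the receptor Ghr (-0.82 ± 0.14) fell, and Igf2r (0.82 ± 0.13), Igfbp7 (0.58 ± 0.15) and Jak2 (0.30 ± 0.09) rose, of which only 1 passed without controls 1 to 3, without mutant 3 or in 1 fit over all 5 groups. Male-biased targets were among the deepest falls. Elovl3, a fatty acid elongase, had 0.390, 0.354 and 0.304 CPM in mutants, against 157 to 641 CPM in controls (median 289 CPM, log2 change -9.97 ± 0.87, adjusted p = 1.36e-05). Hsd3b5, a steroid reductase, had 0.167, 0.177 and 0.391 CPM in mutants, against 119.8 to 388 CPM in controls (median 249.9 CPM, log2 change -9.84 ± 0.70, adjusted p = 2.62e-06). Slco1a1, a carrier of organic anions, had 0.835, 0.767 and 0.955 CPM in mutants, against 437 to 630.2 CPM in controls (median 507 CPM, log2 change -9.24 ± 0.24, adjusted p = 8.46e-10). For these 3 genes every control was far above every mutant, and no mutant reached 1 CPM. The urinary protein genes depended on which controls were used. Mup7 changed by -9.81 ± 3.17 (adjusted p = 0.035) with all controls, by -10.80 (adjusted p = 4.82e-07) without controls 1 to 3 and by -2.30 (adjusted p = 0.032) without controls 4 to 6. For Mup17 the 3 values were -8.81, -9.80 and -2.41. Mup14 changed by -9.19 with all controls and by -10.17 without controls 1 to 3, and without controls 4 to 6 it had too few counts to be tested. Mup3 fell against either set, to 77.8, 52.4 and 37.1 CPM in mutants, against 3282, 4841 and 3821 CPM in controls 1 to 3 and 9593, 10419.9 and 9519 CPM in controls 4 to 6. Members of this family are near copies of each other, and how the authors' counting divided their reads is not known.

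Transcription factors that define hepatocytes changed in a share near that of all genes. Of 20 tested, 2 rose, 6 fell and 12 did not pass, with 5 higher and 3 lower by library size alone. Gata6, a factor of early endoderm, had 21.4, 30.0 and 29.3 CPM in mutants, against 4.80 to 9.57 CPM in controls (median 7.45 CPM, log2 change 1.88 ± 0.18, adjusted p = 1.06e-05), and its relative Gata4 fell (-0.59 ± 0.10). Zbtb20, a repressor of fetal genes, rose (0.48 ± 0.15), and Nr5a2 (-0.61 ± 0.16) and Zhx2 (-0.43 ± 0.11) fell. Hnf4a, the best known of them, had 776 ± 74.9 CPM in mutants and 692 ± 167 CPM in controls, which was not a passing difference (log2 change 0.17 ± 0.18, adjusted p = 0.493). Onecut1 changed by -2.52 with all controls (adjusted p = 0.0469) and by -0.46 without controls 4 to 6 (adjusted p = 0.322). Genes of both ends of the lobule fell. Of 15 genes expressed around the central vein 7 fell and 3 rose, with Ces3a (-1.99 ± 0.21), Oat (-1.86 ± 0.46) and Cyp2e1 (3008 ± 1291 CPM in mutants and 8848 ± 1324 CPM in controls, -1.56 ± 0.24) lower and Rhbg, Slc13a3 (1.41 ± 0.19) and Axin2 (0.65 ± 0.24) higher. Of 16 genes of the portal side 9 fell, among them Hsd17b13 (-1.40 ± 0.11), Pigr (-1.79 ± 0.15), Etnppl (-3.76 ± 0.30) and Cyp2f2 (-1.74 ± 0.28), and 1 rose, the cadherin Cdh1. In 1 fit over all 5 groups 4 of the central and 4 of the portal genes fell, and 1 of the central genes rose, against 5 by library size alone.

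Enzymes of conjugation and export went both ways within their families. Of 22 glutathione transferases 11 fell and 6 rose. Gsta1 (12.4 ± 9.64 CPM in mutants and 0.863 ± 0.426 CPM in controls, 3.83 ± 0.46) and Gsta2 (67.5 ± 52.1 CPM in mutants and 12 ± 1.31 CPM in controls, 2.49 ± 0.36) rose. Gstm4 (27.3 ± 4.67 CPM in mutants and 90.5 ± 13.8 CPM in controls, -1.73 ± 0.15), Gstm6 (-1.67 ± 0.20) and Gstt3 (-2.20 ± 0.21) fell. Gstm5 (1.12 ± 0.13) and the membrane forms Mgst1 (0.47 ± 0.13), Mgst2 (2.47 ± 0.38) and Mgst3 (0.75 ± 0.17) rose too. In 1 fit over all 5 groups 3 of the family rose. Among 10 genes of sulfation, Sult2a8, a bile acid sulfotransferase of male liver, fell to 12, 8.67 and 4.95 CPM in mutants, against 904 to 1168 CPM in controls (median 1049 CPM, log2 change -6.94 ± 0.30, adjusted p = 3.85e-08), while Sult1e1 took the opposite course. Sult5a1 (-3.68 ± 0.29), Sult1d1 (-1.96 ± 0.17), Sult1b1 (-1.49 ± 0.23) and Sult1c2 (-0.99 ± 0.21) fell as well. Sult1a1 (0.47 ± 0.17) and Papss1 (0.47 ± 0.17), which makes the sulfate donor, rose by small steps that did not hold without mutant 2, without any 1 of controls 1, 4, 5 and 6, without controls 4 to 6 or 3 and 5, or among protein coding genes alone. Of 26 carriers 10 fell and 6 rose. Apart from the cation carrier Slc22a3 (1.28 ± 0.15), those that rose export bile acids, lipids or drugs. Slc51b averaged 27.2 ± 5.37 CPM in mutants and 0.366 ± 0.180 CPM in controls (6.16 ± 0.27), and Abcb4 978 ± 48.3 CPM in mutants and 242 ± 30.1 CPM in controls (2.02 ± 0.11). Abcc4 (2.36 ± 0.18), Abcg2 (0.81 ± 0.10) and Abcb1a (1.89 ± 0.28) followed. Slco1a1, described above, was among the 10 that fell, and whether exporters were too is not reported here.

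Antioxidant genes under NRF2 and the pentose phosphate pathway, which makes NADPH, rose in 13 of 20 cases and fell in 3, with a median of 0.89. Srxn1, which repairs oxidised peroxiredoxin, had 244, 251 and 265 CPM in mutants, against 41.4 to 55.1 CPM in controls (median 47.5 CPM, log2 change 2.41 ± 0.11, adjusted p = 3.29e-08). Txnrd1 (0.98 ± 0.09) and Ugdh (1.23 ± 0.10) rose, and Aox1 (-1.49 ± 0.19), Osgin1 (-1.34 ± 0.38) and Keap1, the inhibitor of NRF2 (-0.42 ± 0.08), fell. In 1 fit over all 5 groups of the series 7 rose, and in DESeq2 5 fell. Of 18 genes under ATF4, the factor of amino acid shortage, 9 rose. Asns, asparagine synthetase, had 84.7, 62.4 and 44.0 CPM in mutants, against 0.460 to 10.7 CPM in controls (median 2.30 CPM, log2 change 4.12 ± 0.64, adjusted p = 0.000639). The lipoprotein receptor Vldlr averaged 33.0 ± 7.31 CPM in mutants and 2.42 ± 0.859 CPM in controls (3.77 ± 0.24), and Mthfd2 (2.03 ± 0.31) and the amino acid carrier Slc7a5 (1.11 ± 0.24) rose. Atf5 fell (-0.71 ± 0.18). Of 15 genes of folding in the endoplasmic reticulum, the stress sensor Ern1 rose (0.56 ± 0.16), Pdia6 fell (-0.56 ± 0.14), and the other 13, Hspa5 (-0.28 ± 0.36) and Xbp1 (-0.31 ± 0.23) included, did not pass. Without mutant 2 0 rose, without controls 1 to 3 3 rose and 2 fell, and without controls 4 to 6 1 rose and 4 fell.

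More of the tested epithelial and cytoskeletal genes rose than fell. Of 30 genes of keratins and the cytoskeleton 23 rose and 1 fell, with a median of 0.85. The list holds Add2 and Krt20, which were tested only through the mutants, so these counts are a description. Tpm1, a tropomyosin that stabilises actin filaments, had 168, 151 and 159.6 CPM in mutants, against 31.0 to 37.3 CPM in controls (median 34.9 CPM, log2 change 2.20 ± 0.08, adjusted p = 9.87e-09). The lamin gene Lmna (151 ± 5.26 CPM in mutants and 42.8 ± 5.43 CPM in controls, 1.82 ± 0.10) and ezrin, Ezr (2.07 ± 0.17), which ties actin to the membrane, rose. Krt20, a keratin of gut epithelium, had 7.79, 3.48 and 15.9 CPM in mutants and 1 count in all controls. Actn1 was the one that fell (-0.89 ± 0.21). Annexins and S100 proteins, which bind membranes in a calcium-dependent way, rose in 13 of the 16 tested, out of 23 listed. Of these, 2 fell, S100a13 (-0.72 ± 0.11) and S100a1 (-0.38 ± 0.12). Anxa2 had 171, 159 and 208 CPM in mutants, against 11.9 to 17.6 CPM in controls (median 14.7 CPM, log2 change 3.59 ± 0.13, adjusted p = 8.73e-09). Its partner S100a10 averaged 362 ± 36.7 CPM in mutants and 79.9 ± 17.3 CPM in controls (2.18 ± 0.17), S100a11 41.0 ± 5.19 CPM in mutants and 2.55 ± 0.689 CPM in controls (4.01 ± 0.18) and S100a6 50.03 ± 22.9 CPM in mutants and 2.09 ± 0.553 CPM in controls (4.58 ± 0.27). Cell junction genes rose in 16 of 26 and fell in 4. Cdh1, E-cadherin, had 246, 181 and 274 CPM in mutants, against 30.6 to 71.8 CPM in controls (median 57.4 CPM, log2 change 2.06 ± 0.23, adjusted p = 3.84e-05), whereas Cdh2, N-cadherin, which hepatocytes also carry, fell (-0.68 ± 0.11). Cldn7, a claudin of ducts and gut, averaged 22.7 ± 14.6 CPM in mutants and 0.558 ± 0.244 CPM in controls (5.36 ± 0.41), and F11r (1.5 ± 0.11), desmoplakin, Dsp (1.31 ± 0.10), and plakoglobin, Jup (0.93 ± 0.10), rose, while Cldn12 (-0.50 ± 0.08), Dsc2 (-0.51 ± 0.15) and Pkp2 (-0.41 ± 0.14) fell. The number of junction genes that fell was 2 without mutant 2, without mutant 3 or by library size alone and 1 in 1 fit over all 5 groups.

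Genes of the intestinal brush border were among the sharpest rises, though not as a complete set. Of 27 listed, 13 had enough counts to be tested, some of them through the mutants alone, so their counts (7 higher, 3 lower) are a description. With no filter on low counts 8 of 24 rose and 3 fell. Vil1, the actin bundler of microvilli, had 50.6, 47.6 and 110.2 CPM in mutants, against 0.284 to 0.526 CPM in controls (median 0.367 CPM, log2 change 7.51 ± 0.32, adjusted p = 3.71e-08). Cdhr2, which links the tips of microvilli, averaged 19.6 ± 8.6 CPM in mutants and 0.0569 ± 0.0530 CPM in controls (8.26 ± 0.46), and Mep1a, a brush border protease, 2.02 CPM in mutants with no count in controls. Cdhr5, the adhesion partner of Cdhr2, changed by 0.70 ± 0.17, and Espn (1.40 ± 0.33) and Tspan8 (1.95 ± 0.56) rose at low levels. Other gut genes fell, namely Anpep (-1.20 ± 0.13), Fabp2 (23.5 ± 8.26 CPM in mutants and 85.0 ± 15.6 CPM in controls, -1.86 ± 0.24) and Lgals4 (-2.09 ± 0.30). The list's summed level was 360.0 to 407 CPM in mutants and 323 to 427 CPM in controls, so the groups overlapped. Ly6d, a surface protein of squamous epithelium and lymphoid precursors kept in a list of fetal and tumour markers, had 218, 286 and 725 CPM in mutants, against 1.55 to 3.29 CPM in controls (median 1.74 CPM, log2 change 7.69 ± 0.40, adjusted p = 2.8e-07).

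Ligands and receptors of growth factor pathways changed on both sides of the signal. In the EGF family the ligands Nrg1 (9.51 ± 2.44 CPM in mutants and 0.445 ± 0.221 CPM in controls, 4.4 ± 0.29), Btc (2.35 ± 0.26), Hbegf (1.81 ± 0.44) and Tgfa (1.04 ± 0.14) rose. The receptors Egfr, with 149, 104 and 167 CPM in mutants, against 526 to 987 CPM in controls (median 633 CPM, log2 change -2.26 ± 0.23, adjusted p = 1.72e-05), and Erbb4 (-1.61 ± 0.30) fell. In the TGF-beta pathway 12 of 25 genes rose and 1 fell, with 6 rising without mutant 3 and 7 without controls 4 to 6. The receptor Tgfbr2 had 192, 199 and 209.9 CPM in mutants, against 27.9 to 34.3 CPM in controls (median 30.8 CPM, log2 change 2.68 ± 0.08, adjusted p = 3.21e-09). Ltbp3, which tethers the latent ligand to matrix, averaged 127 ± 46.3 CPM in mutants and 4.09 ± 1.26 CPM in controls (4.96 ± 0.27), and the ligand Tgfb2 14 ± 4.99 CPM in mutants and 0.994 ± 0.304 CPM in controls (3.82 ± 0.27). Smad9, a transducer of the BMP branch, fell to 1.73, 0.531 and 0.304 CPM in mutants, against 7.62 to 24.9 CPM in controls (median 15.1 CPM, log2 change -4.23 ± 0.67, adjusted p = 0.000632). Around HGF and its receptor 6 of 12 genes rose and 2 fell. Hgf itself averaged 6.66 ± 2.49 CPM in mutants and 3.62 ± 0.692 CPM in controls (0.89 ± 0.23). The membrane protease St14, matriptase, had 52.3, 82.0 and 115 CPM in mutants, against 0.740 to 1.35 CPM in controls (median 1.19 CPM, log2 change 6.25 ± 0.25, adjusted p = 2.25e-08). Its inhibitors Spint1 (3.27 ± 0.54) and Spint2 (0.49 ± 0.09) and the proteases Tmprss2 (3.16 ± 0.16) and Tmprss4 (3.67 ± 0.54) rose too, while hepsin, Hpn (-0.66 ± 0.10), and the HGF activator Hgfac (-1.30 ± 0.11) fell and Met did not pass (0.14 ± 0.12). Of the FGF, PDGF and VEGF genes 8 of 23 fell, including Fgf1 (-2.65 ± 0.27), the FGF19-class receptor Fgfr4 (-1.41 ± 0.15) and Vegfb (-1.43 ± 0.11). The 5 that rose were Pdgfa (1.87 ± 0.14), Pdgfb (1.93 ± 0.34), Pdgfc (1.25 ± 0.28), Flt4 (2.14 ± 0.28) and Nrp1 (1.10 ± 0.20), and by library size alone 6 rose and 5 fell.

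More matrix genes rose than fell, and so did markers of the cells that make them. In whole tissue more cells of a type and more RNA per cell cannot be told apart. Of 26 collagens and collagen enzymes 16 rose and 4 fell, and 10 rose without mutant 3 and 10 without controls 1 to 3. By library size alone, without mutant 2 or without controls 4 to 6 2 fell. Their summed level was 1409 to 1948 CPM in mutants and 1721 to 1903 CPM in controls, so the groups overlapped. Col4a1, of basement membranes, averaged 104 ± 41.9 CPM in mutants and 35.4 ± 6.17 CPM in controls (log2 change 1.56 ± 0.21, adjusted p = 0.000163), and Col12a1 7.0 ± 1.18 CPM in mutants and 2.31 ± 0.50 CPM in controls (1.59 ± 0.20). Col5a3 (-0.99 ± 0.15), Col18a1 (842 ± 45.5 CPM in mutants and 1275 ± 90.3 CPM in controls, -0.60 ± 0.10), Col27a1 (-0.65 ± 0.19) and P4ha2 (-0.68 ± 0.25) fell. Stellate cell markers rose in 8 of 15, and in 5 without mutant 3, without controls 1 to 3 or without controls 4 to 6. Their summed level was 639.8 to 764 CPM in mutants and 399 to 587 CPM in controls. Acta2, the actin of activated stellate cells, did not pass (-0.07 ± 0.72). Among 27 laminins and integrins 14 rose and 3 fell. The laminin receptor Itga6 averaged 19.4 ± 6.10 CPM in mutants and 2.30 ± 0.331 CPM in controls (3.08 ± 0.19) and the laminin chain Lamc1 60.2 ± 11.7 CPM in mutants and 17.1 ± 2.57 CPM in controls (1.81 ± 0.14). Lama3 (-2.73 ± 0.34), Lamb3 (-1.60 ± 0.26) and Itga7 (-0.48 ± 0.18) fell. Matrix proteases and their inhibitors rose in 15 of 23 cases, with the membrane-bound Mmp14 at 96.1 ± 17.0 CPM in mutants and 38.2 ± 9.85 CPM in controls (1.33 ± 0.20), and Ctsl fell (-0.35 ± 0.12).

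Macrophages were read in 2 lists of markers. Markers of resident Kupffer cells rose in 3 of 12, the complement chains C1qa (0.52 ± 0.18), C1qb (0.67 ± 0.20) and C1qc (0.57 ± 0.18). The count was 0 without mutant 3, without controls 4 to 6 or without controls 3 and 5, and it was 1 without control 5, 7 without mutant 1, 8 without control 2 and 9 by library size alone. Their summed level was 571 to 1047 CPM in mutants and 397 to 777 CPM in controls, and the groups overlapped. Clec4f (0.35 ± 0.19) and Timd4 (0.30 ± 0.29), the defining markers, did not pass. Markers of monocytes and of lipid-associated macrophages rose in 9 of 12. Gpnmb, a lysosomal membrane protein of such macrophages, had 52.9, 210.3 and 112 CPM in mutants, against 0.197 to 0.553 CPM in controls (median 0.378 CPM, log2 change 8.40 ± 0.46, adjusted p = 3.58e-07). The lectin Lgals3 averaged 119 ± 20.8 CPM in mutants and 6.37 ± 1.90 CPM in controls (4.22 ± 0.20), osteopontin, Spp1, 254 ± 206 CPM in mutants and 62.2 ± 18.8 CPM in controls (2.03 ± 0.43), and the chemokine receptors Ccr2 (1.91 ± 0.37) and Cx3cr1 (2.73 ± 0.48) and the receptor Trem2 (1.78 ± 0.46) rose at lower levels, with Trem2 at 2.42 ± 1.71 CPM in mutants and 0.705 ± 0.319 CPM in controls. The summed level of the list was 441 to 1002 CPM in mutants and 153 to 206 CPM in controls. Spp1 and Lgals3 are also expressed by bile duct cells and other epithelia. Antigen presentation genes rose in 10 of 14 and none fell, with 6 without controls 1 to 3 and 5 without controls 4 to 6. B2m, the light chain of class I molecules, averaged 3328 ± 187 CPM in mutants and 1889 ± 112 CPM in controls (log2 change 0.82 ± 0.09, adjusted p = 4.2e-05). Of 30 chemokines and cytokines listed, 22 had enough counts to be tested, some of them through the mutants alone, and 12 rose. Among these were Ccl7, which draws monocytes (4.28 ± 5.28 CPM in mutants and 0.124 ± 0.0821 CPM in controls, 5.04 ± 0.82), Lif (4.54 ± 0.52) and Il33 (1.60 ± 0.23). Ccl9 (-1.23 ± 0.13), Cxcl12 (-0.67 ± 0.12) and Mif (-0.32 ± 0.12) fell, and 5 of the list rose without controls 4 to 6. NF-kB genes and their feedback inhibitors rose in 9 of 16, or in 5 without controls 4 to 6, as in Tnip1 (1.38 ± 0.16) and Tnfaip3 (1.58 ± 0.38).

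Few of the tested markers of lymphocytes, dendritic cells, neutrophils and sinusoidal endothelium passed. Among 9 T and NK cell markers tested, Cd3e (0.04 ± 0.35), Cd3d (0.22 ± 0.39) and Cd4 (-0.35 ± 0.30) did not pass, and all 3 lay under 3 CPM on average in both groups. Themis, known from thymocytes, had 9.57, 13.9 and 13.8 CPM in mutants, against 0.142 to 0.438 CPM in controls (median 0.318 CPM, log2 change 5.31 ± 0.24, adjusted p = 3.98e-08). It rose while the defining T cell genes stayed near the limit of detection. Of 9 B and plasma cell markers Ighm alone rose (82.2 ± 40.5 CPM in mutants and 20.1 ± 14.3 CPM in controls, 2.03 ± 0.49), and it did not pass without mutant 3 or without controls 4 to 6. Of 6 dendritic cell markers Cd209a rose (1.86 ± 0.40) and Xcr1 (-0.29 ± 0.39) and Clec9a (0.33 ± 0.28) did not pass. No neutrophil marker of the 3 tested passed. Sinusoidal endothelium had 2 of 13 markers higher, Lyve1 (1.38 ± 0.35) and Maf (0.58 ± 0.17), against 0 without mutant 3 or without controls 4 to 6 and 4 without control 1. Bile duct markers rose in 5 of 11, Cldn7, Tm4sf4 (1.13 ± 0.10), Epcam (1.89 ± 0.38), Spp1 and Prom1 (1.55 ± 0.49). The keratins that define ducts, Krt7 (0.36 ± 0.39) and Krt19 (0.45 ± 0.51), and Sox9 (0.27 ± 0.43) did not pass. Of 13 hepatocyte markers 7 fell and none rose, with a median of -0.87. Asgr2 (-1.95 ± 0.13) fell, while its partner in the asialoglycoprotein receptor, Asgr1 (-0.14 ± 0.11), did not pass.

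Genes of the cell cycle changed in both directions. Of 23 cyclins, kinases and inhibitors 11 rose and 2 fell. Ccnd1, cyclin D1, had 70.0, 192 and 118 CPM in mutants, against 20.7 to 34.3 CPM in controls (median 24.1 CPM, log2 change 2.30 ± 0.26, adjusted p = 6.75e-05). Cdkn1a, the inhibitor p21, averaged 39.7 ± 4.95 CPM in mutants and 4.70 ± 3.15 CPM in controls (3.08 ± 0.42), and Cdk6 (0.83 ± 0.09) and Rbl1 (1.82 ± 0.24) rose, while Cdk2 (-0.91 ± 0.18) and Ccnd3 (-0.45 ± 0.11) fell. DNA replication was mixed. Of 27 genes 6 rose, a share near the 22.3% of all genes, and 3 fell, a smaller share than the 20.4% of all genes. Their summed level was 168 to 183 CPM in mutants and 239 to 313 CPM in controls. A single gene, Mcm10, weighs heavily in that sum. Mcm2 (14 ± 2.24 CPM in mutants and 3.05 ± 0.773 CPM in controls, 2.20 ± 0.21) and Mcm6 (1.40 ± 0.13), subunits of the replicative helicase, rose. Mcm10, which helps to activate it, fell to 15.4, 16.5 and 10.5 CPM in mutants, against 62.9 to 146 CPM in controls (median 87.4 CPM, log2 change -2.76 ± 0.30, adjusted p = 4.28e-05), and Tk1, a kinase that supplies nucleotides (-1.71 ± 0.28), fell. Among 26 apoptosis genes 12 rose and 6 fell. Casp12, a caspase of the endoplasmic reticulum, had 29.3, 51.3 and 91.3 CPM in mutants, against 1.83 to 3.25 CPM in controls (median 2.14 CPM, log2 change 4.63 ± 0.31, adjusted p = 1.33e-06). The TNF receptor Tnfrsf1a (232 ± 5.26 CPM in mutants and 94.4 ± 5.99 CPM in controls, 1.30 ± 0.08), Mlkl, the effector of necroptosis (1.84 ± 0.17), and the death receptor Tnfrsf10b (2.90 ± 0.30) rose. Casp8 (-0.66 ± 0.11), Fas (-0.60 ± 0.16), Cflar (-0.52 ± 0.18), Bik (-0.87 ± 0.29) and Bbc3 (-1.62 ± 0.50) were among the 6 that fell, of which only Casp8 and Fas passed without mutant 3, and 3 without mutant 2 or without controls 3 and 5. The number that fell was 2 by library size alone.

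By type of gene, long non-coding RNAs fell more often than they rose. Of 755 tested 275 fell and 63 rose, against 2443 and 2972 of 12624 protein coding genes. Those named had groups that did not overlap and a mean of at least 5 CPM in the higher group. Among these, the 3 with the largest falls were Gm3734 (0.0920 ± 0.0738 CPM in mutants and 32.3 ± 19.4 CPM in controls), Gm15998 (0.0961 ± 0.0895 CPM in mutants and 15.7 ± 5.68 CPM in controls) and Gm50136 (0.0393 ± 0.0681 CPM in mutants and 5.35 ± 3.44 CPM in controls). The 3 with the largest rises were 4930546K05Rik (14.6 ± 11.6 CPM in mutants and 0.0575 ± 0.0286 CPM in controls), Gm26747 (11.6 ± 3.10 CPM in mutants and 0.168 ± 0.150 CPM in controls) and Gm10680 (65.9 ± 14.4 CPM in mutants and 1.76 ± 1.17 CPM in controls). The libraries keep the strand, but whether the counting used it is not stated, so reads of a neighbour on the other strand cannot be told apart. Of the genes that changed, 2352 changed at least 2-fold, 1354 of them upwards. At least 8-fold, 298 rose and 205 fell. Among the largest gains in CPM beside Apoa4 and Apob were P4hb, a folding enzyme and subunit of collagen hydroxylase (3627 ± 313 CPM in mutants and 1625 ± 231 CPM in controls, 1.16 ± 0.13), Mat1a, which makes the methyl donor (4273 ± 372 CPM in mutants and 2590.1 ± 403 CPM in controls, 0.72 ± 0.14), and Cyp3a11, a drug-metabolising P450 (4040.0 ± 463 CPM in mutants and 2453 ± 446 CPM in controls, 0.72 ± 0.16).

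Some genes differed widely among the 3 mutants themselves. The 6 protein coding genes with the largest SD of log2(CPM + 0.5), among those averaging at least 5 CPM in mutants, are given. The first was Thbs1, a matrix glycoprotein, with 2.23, 2.71 and 35.2 CPM in mutants 1 to 3, against 0.771 to 2.71 CPM in controls (median 1.24 CPM, log2 change 3.19 ± 0.81, adjusted p = 0.0102). Pck1, the enzyme that commits carbon to gluconeogenesis, had 192, 1999.7 and 344 CPM in mutants, against 878 to 2718 CPM in controls (median 1789.6 CPM, log2 change -1.05 ± 0.67, adjusted p = 0.237). Mutant 2 lay within the controls and mutants 1 and 3 lay below them all. Cyp4a10, a fatty acid hydroxylase of fasting, had 8.74, 1.59 and 20.6 CPM in mutants, against 61.4 to 239 CPM in controls (median 137 CPM, log2 change -3.77 ± 0.70, adjusted p = 0.00191). Noct, a clock-controlled phosphatase, had 4.12, 56.9 and 24.7 CPM in mutants, against 4.30 to 65.9 CPM in controls (median 9.93 CPM). The heat shock gene Hspa1b had 4.29, 24.5 and 42.5 CPM in mutants, against 1.61 to 34.3 CPM in controls (median 4.32 CPM), and neither of these passed. Ubd, a ubiquitin-like protein induced by cytokines, had 6.4, 2.54 and 27.7 CPM in mutants, against 0.184 to 1.93 CPM in controls (median 1.06 CPM, log2 change 3.62 ± 0.69, adjusted p = 0.00204).

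Few genes were shown to have changed by a different amount at 2 months than at 9. The mutant change at 2 months was set against that in tumour-free tissue of 3 mutants and 3 controls killed at 9 months, as an interaction in 1 fit over 15 libraries. Of 14707 genes tested 223, or 1.52%, differed, 155 (1.05%) with a more positive change at 2 months and 68 (0.462%) with a more negative one. With scaling by library size alone 87 were more positive and 92 more negative. The libraries of each time came from a separate sequencing run, and age and run cannot be told apart here. Cidec had 201 ± 133 CPM in 2-month mutants, 1.52 ± 0.458 CPM in 2-month controls, 149 ± 19 CPM in tumour-free tissue and 89.3 ± 49.8 CPM in 9-month controls. Its change was 7.03 at 2 months and 0.74 at 9, a difference of 6.29 ± 0.69 (adjusted p = 0.000802), and the step between the 2 control groups was part of it. Nebl, a filament protein of muscle and other tissues, had 6.57 ± 0.819 CPM in 2-month mutants, 0.229 ± 0.127 CPM in 2-month controls, 1.46 ± 0.902 CPM in tumour-free tissue and 2.63 ± 0.458 CPM in 9-month controls (difference 5.63 ± 0.58, adjusted p = 0.000256). Cyp2b9, a P450 that rises in older and female liver, differed by 6.46 ± 1.00 (adjusted p = 0.0069), with 2.12 ± 1.68 CPM in 2-month mutants, 0.358 ± 0.400 CPM in 2-month controls, 8.58 ± 4.37 CPM in tumour-free tissue and 131 ± 76.0 CPM in 9-month controls. On the other side, Cyp2a5, a P450 induced by liver damage, had 1.40 ± 0.199 CPM in 2-month mutants, 376 ± 198 CPM in 2-month controls, 203 ± 239 CPM in tumour-free tissue and 972 ± 115 CPM in 9-month controls (difference -5.81 ± 1.09, adjusted p = 0.0189). All 3 mutants at 2 months were under 2 CPM, against 162 to 682 CPM in the controls of that time. Afp, alpha-fetoprotein, changed by -1.24 at 2 months and 3.56 at 9 (difference -4.80 ± 0.84, adjusted p = 0.00895), and Tff3, a trefoil peptide of gut, by 1.00 and 7.79 (difference -6.79 ± 1.39, adjusted p = 0.0305). The genes given here are protein coding and averaged at least 5 CPM in 1 of the groups. Among such genes Gprc5b (4.63 ± 0.57) and Sult2a7 (5.67 ± 0.67) were the other 2 with the largest positive differences, and Ces1b (-4.49 ± 0.84) and Car1 (-4.41 ± 0.81) those with the largest negative ones. Gprc5b changed by 0.77 at 2 months and -3.85 at 9, and Sult2a7 by -0.38 and -6.05. For both, the difference thus lay mostly in the fall at 9 months. The number that differed was 110 without mutant 2, 148 without mutant 1, 115 and 118 without tumour-free samples 2 and 3, and 128 without controls 4 to 6.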

How the data were processed

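Poly(A) RNA of whole liver was sequenced with a strand-preserving kit, per the labels' protocols. The values are read counts per gene as the authors deposited them, whole numbers for 55421 genes in 1 table. Per the submitters' processing notes, the tools were DESeq2 1.22.2, bedtools 2.27.1, RSEM and STAR 2.6.1a, and the build was GRCm38 (mm10). The annotation counted, the use of strand and whether the counts are rounded RSEM estimates were not given in the sources used here. A share of reads from repeated or near-identical genes may therefore be split between copies.

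The 2-month libraries were fitted in edgeR 4.0.16 (R 4.3.3) with filterByExpr, TMM scaling and the quasi-likelihood test, without covariates, and p-values were adjusted over all 13773 genes by the Benjamini-Hochberg method, with a threshold of 0.05. A standard error is the log2 change divided by the square root of F. The difference between times was fitted over 15 libraries. Library composition was compared with exact two-sided permutation tests. The fit was tested on simulated data for 13360 genes: of genes changed 1.5-, 2-, 4- and 8-fold, it found 23.4, 67.3, 85.4 and 100%, and 5 of its 139 calls were unchanged genes. Only 47, 49, 48 and 49 genes were changed by these folds, up or down at random from the control means. The simulation therefore cannot test the scaling where many genes and abundant transcripts change, as in these livers. Alternatives were DESeq2 1.42.0, limma 3.58.1 voom, other scalings and filters, a 2-fold minimum, a replicate block and leaving out libraries. Leaving out controls 1 to 3, 4 to 6, or 3 and 5 was chosen after seeing the data. Exact intervals of count ratios and Wilson intervals of shares cover counting error only.

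The genes and lists were chosen with earlier results of these data known. Named genes are those with the largest changes whose groups did not overlap and, in each list, the 4 with the smallest p, members of separate roles, and those that ran against the list, while short lists could be given in full. Some genes that this rule would name are not reported here. Gene positions are those of GENCODE M21, in which 13766 of 13773 tested identifiers were found. No 2 libraries of a group agreed within sampling noise.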

Additional observations from a re-analysis of the deposited data

Results flagged for a closer look

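In the 6 controls 1 library stood apart from the other 5 (its gap to the nearest of them, over the range of all 6, exceeded Dixon's 95% critical value) for 35 of 386 values tested. By chance about 1 in 20 groups would be picked out. Control 1 was high for Acta2 (15.4 CPM, against 1.97 to 2.59), Glud1 (1086 CPM, against 951 to 981), Gstt3 (71.1 CPM, against 45.7 to 54.2) and Sult1e1 (0.492 CPM, against 0.0642 to 0.197). Control 2 was high for Cyp2f2 (2227 CPM, against 1303 to 1496), Gpi1 (216 CPM, against 119 to 144), Hspa1b (34.3 CPM, against 1.61 to 8.14), Hspa5 (2068 CPM, against 653 to 1159), Lgals3 (10.1 CPM, against 4.89 to 6.51), Ly6d (3.29 CPM, against 1.55 to 1.84), Noct (65.9 CPM, against 4.30 to 23.4), Orm2 (12.4 CPM, against 4.75 to 7.17), Pygl (795 CPM, against 577 to 648) and Vil1 (0.526 CPM, against 0.284 to 0.370) and was low for Alb (80395 CPM, against 96311 to 99254), Mgst3 (9.20 CPM, against 14.8 to 16.5) and Tspan8 (0.394 CPM, against 0.888 to 1.02). Control 3 was high for C6 (449 CPM, against 299.7 to 347), Fgfr4 (73.7 CPM, against 50.8 to 55.7), Gpam (318 CPM, against 207 to 247) and Pdgfc (11 CPM, against 4.67 to 5.99) and was low for 4930546K05Rik (0 CPM, against 0.0615 to 0.0740). Control 4 was high for Batf2 (1.02 CPM, against 0.657 to 0.780) and Nrg1 (0.876 CPM, against 0.284 to 0.460). Control 5 was high for Egfr (987 CPM, against 526 to 657), Gata4 (29.9 CPM, against 23.2 to 25.1) and mt-Cytb (16321 CPM, against 13016 to 13699) and was low for Apob (3618 CPM, against 4251 to 4588), Cxcl12 (304 CPM, against 389 to 422) and Nr5a2 (46.4 CPM, against 73.9 to 83.4). Control 6 was high for Cps1 (4698 CPM, against 3280 to 3801). A single control held the reads of Acsm4 in control 2 (0.0657 CPM), Krt20 in control 5 (0.0740 CPM) and Opalin in control 6 (0.0709 CPM), with 0 in the other 5. Albumin took 7.58% of the reads of control 2, against 8.85 to 9.43% in the other 5.

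Of the genes named, 31 changed by different amounts in mutants at 2 months and in tumour-free mutants at 9 months, each against controls of its own age, at an adjusted p under 0.05 in edgeR's test of the difference over 15 libraries. The log2 change at 2 months minus that at 9 months was above 0 for Cyp2b9 (6.46), Cidec (6.29), Sult2a7 (5.67), Nebl (5.63), Gprc5b (4.63), Themis (4.58), Apoa4 (4.01), Orm3 (3.81), Gm10680 (3.55), C8a (2.85), Abcb1a (2.43), Sult2a8 (2.28), Mgst1 (1.63), Fitm1 (1.55), Ccnd1 (1.52), Pex11a (1.31), Abcb4 (1.30), Me1 (1.27), Ccl9 (1.15), Sult1a1 (1.09), P4hb (0.89) and Slc25a20 (0.74). It was below 0 for Tff3 (-6.79), Cyp2a5 (-5.81), Afp (-4.80), Ces1b (-4.49), Car1 (-4.41), Serpina1e (-4.13), Cdh1 (-3.26), Espn (-2.65) and Cela1 (-1.57).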

How the results depend on the processing

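Of the calls at 2 months, 5883 in all, edgeR with median-ratio size factors gave 5888, DESeq2 6180, voom 5928, no expression filter 5596, 1 fit over all 5 groups 5160 and protein coding genes alone 5449. By library size alone the median gene moved by 0.29 on the log2 scale, and 5445 genes were higher and 1562 lower. Against a 2-fold minimum 1162 genes passed, 686 higher and 476 lower. Leaving out 1 library gave 4324 (without mutant 3) to 5832 calls, with 2292 to 3057 higher and 2032 to 2775 lower. Same-numbered mutants and controls did not deviate together (correlations of -0.13, 0.30 and -0.28), and with the replicate number as a replicate block 3290 genes passed, 1753 higher and 1537 lower. Controls 4 to 6 have no mutant of the same number, so the block takes them out of the comparison. Without these controls and with no block 4230 passed.

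For the 223 genes whose change differed between 2 and 9 months, library size alone gave 87 higher and 92 lower, the replicate block 54 (38 higher, 16 lower) and leaving out 1 library 110 (without mutant 2) to 293 (without tumour-free 9-month mutant 1), with 72 to 183 higher and 38 to 110 lower. Without mutant 1 the count was 148, and without the tumour-free 9-month mutants 2 and 3 it was 115 and 118, and without 9-month control 3 the lower genes numbered 41. Without controls 4 to 6, which was added after seeing the data, 128 passed (94 higher, 34 lower).

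Of the genes named, no called one turned its sign under the settings run, but many no longer passed. Calls for the difference in time are counted where a setting was run for them. The number lost was 55 without mutant 3, 42 without mutant 2 and 56 without controls 4 to 6. It was 51 in 1 fit over all 5 groups, 81 with the replicate block and 182 against a 2-fold minimum. In DESeq2 it was 0 and with median-ratio size factors 3. Depth limits the size of changes from near 0, for which count ratios and their intervals are given. The sign of genes that did not pass turned as follows, on the log2 scale, and the cause was not tested. By library size alone it turned for Acta2 (0.24), Asgr1 (0.13), Asl (0.18), Dbp (0.19), Hspa5 (0.0063), Jund (0.099), Nags (0.026) and Xcr1 (0.0018). In voom it turned for Acta2 (0.25) and Dbp (0.67). With the replicate block it turned for Ass1 (-0.17), Cd3d (-0.075), Dbp (0.85), Mylpf (-0.27), Noct (-0.098), Sox9 (-0.15) and Xbp1 (0.14). In groups of controls left out after seeing the data, it turned without controls 1 to 3 for Acta2 (0.95), Cd3e (-0.044) and Myc (-0.13), without controls 4 to 6 for Ass1 (-0.14), Cd3d (-0.10), Dbp (0.58), Mylpf (-0.27), Noct (-0.13) and Xbp1 (0.12), and without controls 3 and 5 for Arntl (0.097) and Junb (-0.093). Over the libraries left out one at a time, the changes ranged on both sides of 0 for Acta2 (-0.67 to 0.88), Asl (-0.31 to 0.092), Ass1 (-0.16 to 0.29), Cd3e (-0.27 to 0.25), Dbp (-0.30 to 0.31), Hspa5 (-0.44 to 0.0026), Junb (-0.012 to 0.36), Krt19 (-0.58 to 0.80), Krt7 (-0.14 to 0.60), Myc (-0.11 to 0.59), Mylpf (-0.19 to 0.42), Noct (-0.44 to 1.44) and Sox9 (-0.64 to 0.58).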

Other observations

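Genes of glycogen storage and glucose output were lower where they changed. Of 17 genes tested 7 fell and 0 rose at an adjusted p under 0.05 in edgeR's quasi-likelihood test, with a median log2 change of -0.55. The glycogen phosphorylase of liver, Pygl, averaged 333 ± 41.5 CPM in mutants and 649 ± 76.4 CPM in controls (log2 change -0.96 ± 0.13, adjusted p = 0.000128). Gys2, the glycogen synthase of liver, averaged 94.0 ± 27.8 CPM in mutants and 244 ± 73.0 CPM in controls (-1.37 ± 0.28), and Ppp1r3c, which targets a phosphatase to glycogen, changed by -1.48 ± 0.33. Ppp1r3g, a related subunit known from the fed state, had 1 count in the 3 mutants together, against 0.263 to 1.72 CPM in controls. Of 20 genes of glycolysis 4 rose and 4 fell, shares near the 22.3% and 20.4% of all genes. Hk2 (1.34 ± 0.39), Hk1 (0.69 ± 0.22), Pkm (0.71 ± 0.21) and Pfkp (0.55 ± 0.19) rose, and Pfkm (-1.02 ± 0.13), Aldoc (-1.06 ± 0.21), Ldha (-0.50 ± 0.12) and Gpi1 (-0.51 ± 0.18) fell. By library size alone 12 rose and 2 fell. The number that rose was 0 without controls 4 to 6 and 1 without mutant 3, and 2 in 1 fit over all 5 groups, without control 5 or without controls 3 and 5. In methionine and one-carbon metabolism 3 of 16 rose and 5 fell, with 7 higher and 3 lower by library size alone. Without mutant 2, without mutant 3, without controls 1 to 3 or 3 and 5, or in 1 fit over all 5 groups 3 fell, and without controls 4 to 6 1 rose. Mat1a rose, and Cth (-0.77 ± 0.15), Shmt1 (-1.02 ± 0.20), Cbs (-0.76 ± 0.16), Ahcy (-0.46 ± 0.15) and Gnmt (-0.71 ± 0.24) fell.

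For other lists the counts can be read against the 22.3% of all genes that rose and the 20.4% that fell. Immediate early genes rose in 5 of 15, led by Klf6 (1.74 ± 0.18), and in 9 without mutant 1, 10 by library size alone and 3 in 1 fit over all 5 groups. Feedback genes of MAP kinases rose in 3 of 15 and in 1 without mutant 3 and 5 by library size alone, with Dusp5 (2.33 ± 0.46) higher and Spry4 (-1.67 ± 0.32) lower. Of this list 1 rose and 3 fell without controls 1 to 3, against 1 that fell with all controls. Among WNT targets and feedback genes 4 of 16 rose and 3 fell, and only 2 rose without any 1 of mutants 1 and 2 and controls 1, 5 and 6, without controls 1 to 3 or 4 to 6, or in 1 fit over all 5 groups, while 5 fell in DESeq2 or among protein coding genes alone. In the Notch pathway 1 of 15 rose and 1 fell, with 4 higher by library size alone and 3 lower in DESeq2 or without control 1. Interferon-stimulated genes rose in 4 of 26 and fell in 4, with 10 higher and 1 lower by library size alone. The number that fell was 1 without controls 4 to 6 and 2 without mutant 2, without controls 3 and 5 or in 1 fit over all 5 groups. Heat shock genes rose in 2 of 12 and fell in 2, and in 0 in 1 fit over all 5 groups. Clock genes fell in 3 of 20, namely Bhlhe41 (-2.93 ± 0.90), Nfil3 (-1.10 ± 0.39) and Clock (-0.45 ± 0.11), and in 1 without mutant 2, without mutant 3, by library size alone, in voom or with no filter on low counts. Fetal and tumour markers rose in 5 of the 13 tested out of 22 listed, with Cd63 (3.86 ± 0.23), Igf2bp2 (2.53 ± 0.37), Golm1 (1.14 ± 0.31) and Sox4 (1.19 ± 0.35) beside Ly6d, and in 3 without mutant 3 or without controls 4 to 6.

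Of 9 markers of capillary and tumour endothelium, Cd34 (1.51 ± 0.37) and Plvap (0.63 ± 0.09) rose, and 4 by library size alone. None of 5 mesothelium markers passed, of 5 red cell markers Alas2 fell (-3.06 ± 0.26), and of the pancreas list and of the fat and muscle list only Cela1 (-1.18 ± 0.23) and Mylpf (0.11 ± 0.40) had enough counts to be tested.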
